A study of Homo sapiens with 9 samples.

Results

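The BCL2 family, the caspases, the death receptor adaptors and the inhibitor of apoptosis proteins (IAPs) were followed as 33 named genes among the 27407 features of the table. They were matched by gene symbol, and the list was chosen with earlier results of these data known. All 33 were found and all 33 passed the filter on low counts, which kept 18767 features. The cells are labelled Weri-RB1/CRP, a retinoblastoma cell line resistant to carboplatin, and were cultured in RPMI with fetal bovine serum. Control cells carried the hairpin shNC, and knockdown cells carried shSNHG1#1 or shSNHG1#2, each meant to lower the long noncoding RNA SNHG1. Each of the 3 groups had 3 libraries of total RNA, and all groups share the resistant line and the presence of a hairpin. No group was labelled as treated with carboplatin, as parental cells or as separate clones. Whether replicates were separate cultures is not in the labels, so a p-value reflects the variation among these libraries alone, which could be technical. SNHG1 itself was not analysed here, so groups follow the labels without a check of the knockdown.

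Apoptosis through mitochondria is set by a balance within the BCL2 family. Pro-survival members such as BCL2L1 (BCL-XL) and MCL1 hold the pore formers BAX and BAK1 in check, and BH3-only proteins such as PMAIP1 (NOXA), BBC3 (PUMA) and BCL2L11 (BIM) bind the pro-survival members or activate the pore formers. Once the outer membrane opens, cytochrome c joins APAF1 and activates caspases, which IAPs such as XIAP restrain, while death receptors reach the caspases through the adaptors FADD and TRADD. Platinum drugs damage DNA, and mitochondrial apoptosis is one way in which cells so damaged die.

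The cell label was checked against markers. Of 12 photoreceptor and retinoblastoma markers listed, 11 were in the table and 9 of these stayed below 1 FPKM (fragments per kilobase of transcript length, scaled to depth, so that genes can be compared per length) in every library. CRX, which defines the photoreceptor lineage, had at most 0.03 FPKM. Only GNAT2 (16.0 to 19.6 FPKM) and THRB (1.63 to 2.43 FPKM) reached 1. The epithelial keratins KRT8 and KRT18 lay between 684 and 790 FPKM in all 9 libraries. The other epithelial markers were lower, at 36.3 to 61.3 FPKM for KRT19 and 21.7 to 27.5 for CDH1. CLDN4 had 3.56 to 8.69 FPKM and EPCAM 1.56 to 3.56. Most photoreceptor markers and the keratins thus go against the labelled cell type, while GNAT2 does not, and the identity of the cells was not tested. Total estimated counts were 21502093 to 21606498 per library. A single feature without a gene symbol held 6.57% to 7.09% of the counts in the shNC libraries and 11.8% to 13.5% in the hairpin libraries. The library shSNHG1#1 replicate 1 stood apart in stromal and endothelial transcripts. Its 5 fibroblast markers summed to 16.5 FPKM, against 1.66 to 3.03 in the other 8 libraries, and DCN reached 9.80 FPKM there against at most 0.81 elsewhere. Its 6 blood and endothelial markers summed to 7.63 FPKM, the highest of the 9 libraries. Counts of changed members are therefore also given without that library, and the part of those transcripts in the results was not tested.

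In the control cells 4 members stood far above the rest. BIRC2 (cIAP1), a ubiquitin ligase of the TNF receptor complex, had 134 ± 4.58 FPKM (SD, n = 3), BCL2L1 had 128 ± 2.2, MCL1 had 111 ± 1.61 and BAX had 106 ± 4.25. The shNC libraries of MCL1 (109 to 112 FPKM) and BAX (103 to 111 FPKM) overlapped, as did those of BIRC2 (129 to 137) and BCL2L1 (126 to 130). The fifth member in order, BBC3, had 29.7 ± 1.79 FPKM. At the other end, BMF had 1.09 ± 0.045 FPKM, and HRK (0.35 ± 0.10) and BCL2 (0.19 ± 0.095) were below 1. BCL2, the founding member of the family, was thus almost unread here, while BCL2L1 and MCL1 were the highest of the 5 pro-survival BCL2 genes. Among the pore formers BAX stood above BOK (9.75 ± 0.94 FPKM) and BAK1 (6.65 ± 0.43 FPKM). The caspases of the list ran from CASP8, the initiator at death receptors, at 22.0 ± 0.72 FPKM, through CASP9 (8.09 ± 0.11) and CASP2 (7.80 ± 0.45), to CASP10 (4.09 ± 0.28) and CASP6 (3.07 ± 0.46).

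**Figure D1:**
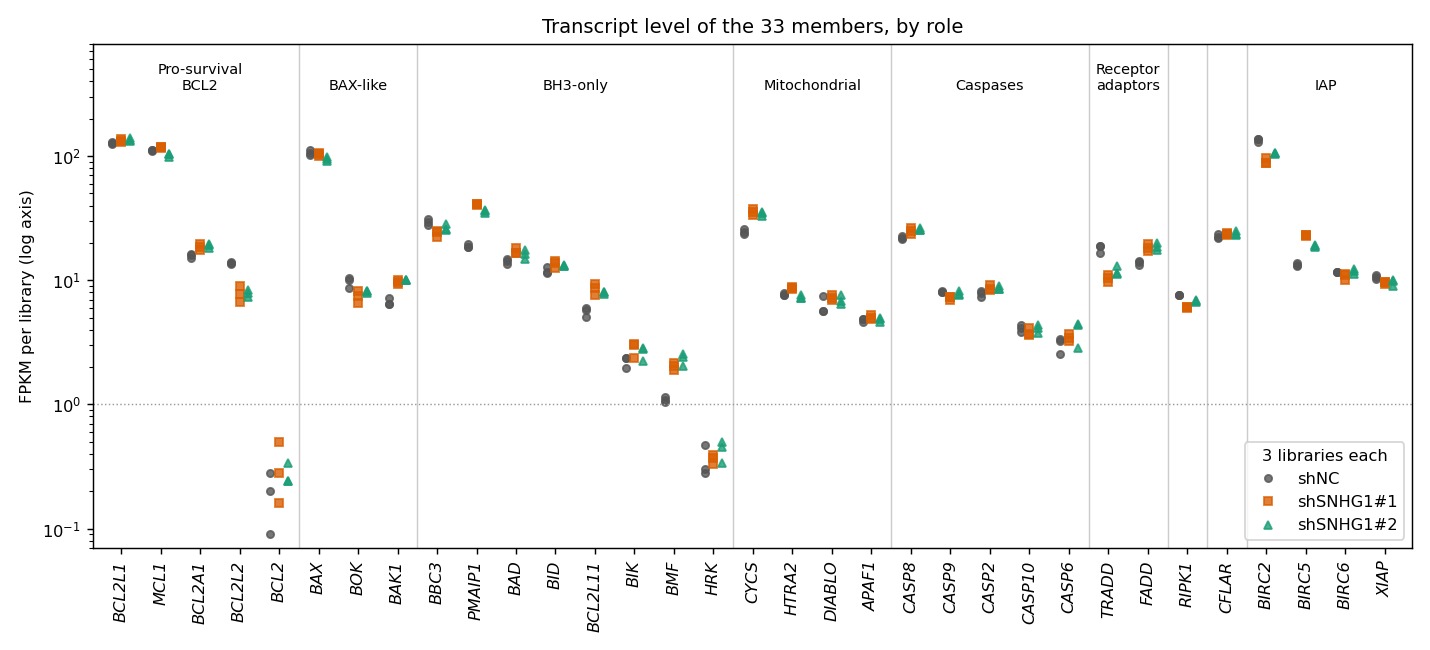
Level of each of the 33 members in every library, in FPKM on a log axis, grouped by role, with shNC as circles, shSNHG1#1 as squares and shSNHG1#2 as triangles (3 libraries each). BIRC2, BCL2L1, MCL1 and BAX lie near or above 100 FPKM in shNC, and BCL2 and HRK lie below the dotted line at 1 FPKM in all 9 libraries.

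Against shNC, 18 of the 33 members changed with shSNHG1#1 (10 higher, 8 lower) and 16 with shSNHG1#2 (9 higher, 7 lower), by edgeR's quasi-likelihood test at an adjusted p below 0.05. Over all features 48.1% were called with shSNHG1#1 and 46.2% with shSNHG1#2, so the members' shares of 54.5% and 48.5% lay near the background. Both comparisons use the same control libraries. With both hairpins, 8 members were higher (BCL2A1, BAK1, BMF, BCL2L11, PMAIP1, CYCS, FADD and BIRC5) and 5 were lower (BCL2L2, BBC3, TRADD, BIRC2 and XIAP), where 20.3% of all features were higher with both and 19.7% lower with both. In FPKM, the libraries of 25 members with shSNHG1#1 and 22 with shSNHG1#2 did not overlap those of shNC, where this held for 53.3% and 52.6% of all features. In bulk RNA, fewer cells of a kind and less RNA per cell cannot be told apart. Without shSNHG1#1 replicate 1 the counts were 17 (8 higher, 9 lower) and 15 (7 higher, 8 lower), with 7 members higher with both hairpins and 7 lower with both. Scaling by library totals alone, without TMM factors, moved the share of higher calls over all features from 50.5% to 60.9% for shSNHG1#2 and gave 12 members higher and 7 lower there.

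Read by role, more of the 22 pro-death members rose than fell, in numbers that varied with the fit. The split of the 10 pro-survival members depended on the scaling and the unit. Of the pro-death members, 8 rose and 3 fell with shSNHG1#1 and 7 rose and 3 fell with shSNHG1#2, at a median log2 fold change over all 22 of 0.20 and 0.10. When each library was left out in turn, 6 to 8 were higher and 3 to 4 lower with either hairpin. The calls of BAD and BID with shSNHG1#1 and HRK with shSNHG1#2 were lost in 6, 4 and 7 of 9 such fits. Limma on log2(FPKM + 1) added CASP8 as higher with both hairpins and BOK as lower with shSNHG1#1, and lost BBC3 with shSNHG1#2. Of the pro-survival members, 2 rose and 4 fell with either hairpin, at a median of -0.02 and -0.012. Over all features 24.5% were higher and 23.5% lower with shSNHG1#1, and 23.3% higher and 22.8% lower with shSNHG1#2. The medians over all features tested were 0.023 and 0.011, and no test was made of the difference between the roles. On log2(FPKM + 1), limma called 3 pro-survival members higher and 2 lower with shSNHG1#1, and 3 higher and 3 lower with shSNHG1#2. Library totals gave 3 higher and 3 lower with shSNHG1#1 and 3 higher and 4 lower with shSNHG1#2. RIPK1, a kinase that can signal survival or death, was counted in neither role. Both roles were mixed: BIRC5 rose among the pro-survival members, and BBC3 and TRADD fell among the pro-death members.

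**Figure D2:**
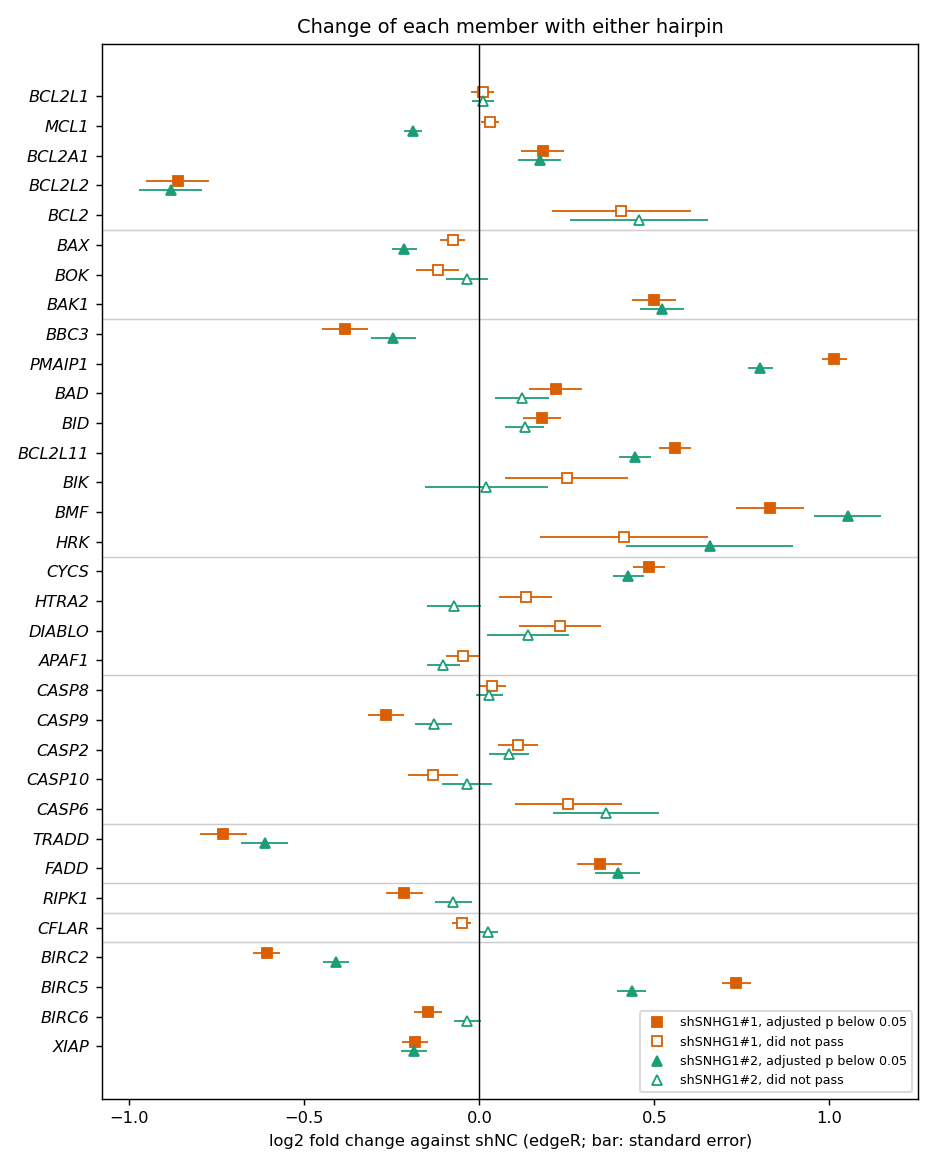
Log2 fold change of each member against shNC from edgeR, with its standard error as a bar, for shSNHG1#1 (squares) and shSNHG1#2 (triangles), filled where the adjusted p was below 0.05. PMAIP1 and BMF lie farthest to the right, and BCL2L2, TRADD and BIRC2 farthest to the left, in the same direction for both hairpins.

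The BH3-only proteins held the largest increases. PMAIP1 (NOXA), which binds MCL1, rose from 19.6, 18.4 and 18.5 FPKM in the shNC libraries to 40.7, 41.3 and 41.5 with shSNHG1#1 and 34.5, 36.3 and 36.5 with shSNHG1#2. The 3 groups did not overlap, and every shSNHG1#2 library lay below every shSNHG1#1 library. Its log2 fold change was 1.01 (SE 0.036, adjusted p = 3.865e-09) with shSNHG1#1 and 0.80 (SE 0.036, adjusted p = 3.241e-08) with shSNHG1#2. BMF, a BH3-only protein linked to the cytoskeleton, went from 1.14, 1.09 and 1.05 FPKM to 2.03, 1.90 and 2.16 with shSNHG1#1 and 2.05, 2.57 and 2.39 with shSNHG1#2. Its control libraries all lay below its hairpin libraries, whose groups overlapped each other, and the log2 fold changes were 0.83 (SE 0.097) and 1.05 (SE 0.096). BMF thus roughly matched PMAIP1 in fold at a far lower level.

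BCL2L11 (BIM), which binds every pro-survival BCL2 protein, had 5.08, 5.93 and 5.77 FPKM in shNC, 8.60, 9.34 and 7.68 with shSNHG1#1 and 7.76, 8.11 and 8.06 with shSNHG1#2. All hairpin libraries lay above all control libraries, and the log2 fold changes were 0.56 (SE 0.046) and 0.44 (SE 0.046). The annotation places the noncoding gene MIR4435-2HG over BCL2L11 on the opposite strand, and the use of strand in counting is not given in the sources used here. Opposite-strand genes overlap other members too. Among them are FADD (1011 of 1841 exon bases), BCL2L1 (1424 of 3314), BAD (404 of 1708, by GPR137) and HTRA2 (483 of 3001, by AUP1). The mean count of GPR137 was 446 in shNC, 561 with shSNHG1#1 and 600 with shSNHG1#2. The part of such overlap in the members' values was not tested. BBC3 (PUMA), a p53 target, moved the other way, from 29.7, 27.8 and 31.4 FPKM to 24.8, 22.2 and 24.4 with shSNHG1#1 and 28.5, 25.7 and 25.3 with shSNHG1#2. The shSNHG1#1 libraries were all below shNC, whereas shSNHG1#2 overlapped shNC in FPKM. On counts BBC3 fell by 0.39 (SE 0.065) and 0.25 (SE 0.065) on the log2 scale, and with shSNHG1#2 limma on FPKM did not call it (adjusted p = 0.0742 at a pseudocount of 1).

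The 4 remaining BH3-only members had smaller or less stable differences. BAD and BID, which link growth factor signals and caspase cleavage to mitochondria, rose with shSNHG1#1 by 0.22 (SE 0.076) and 0.18 (SE 0.055) on the log2 scale and were at 0.12 and 0.13 with shSNHG1#2, which did not pass (adjusted p = 0.227 and 0.0787; BID passed with library totals, at 0.0185). When each library was left out in turn, BAD lost its call in 6 of 9 fits (highest adjusted p = 0.156, without shSNHG1#1 replicate 3) and BID in 4 of 9 (highest 0.114, without the same library). HRK had 0.47, 0.30 and 0.28 FPKM in shNC, 0.39, 0.37 and 0.33 with shSNHG1#1 and 0.34, 0.45 and 0.50 with shSNHG1#2, so its groups overlapped. On counts HRK passed with shSNHG1#2 (log2 fold change 0.66, SE 0.24, adjusted p = 0.0431), a call lost in 7 of 9 fits that left out a library (highest adjusted p = 0.144, without shNC replicate 3). BIK did not pass with either hairpin, at 0.25 and 0.02.

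**Figure D3:**
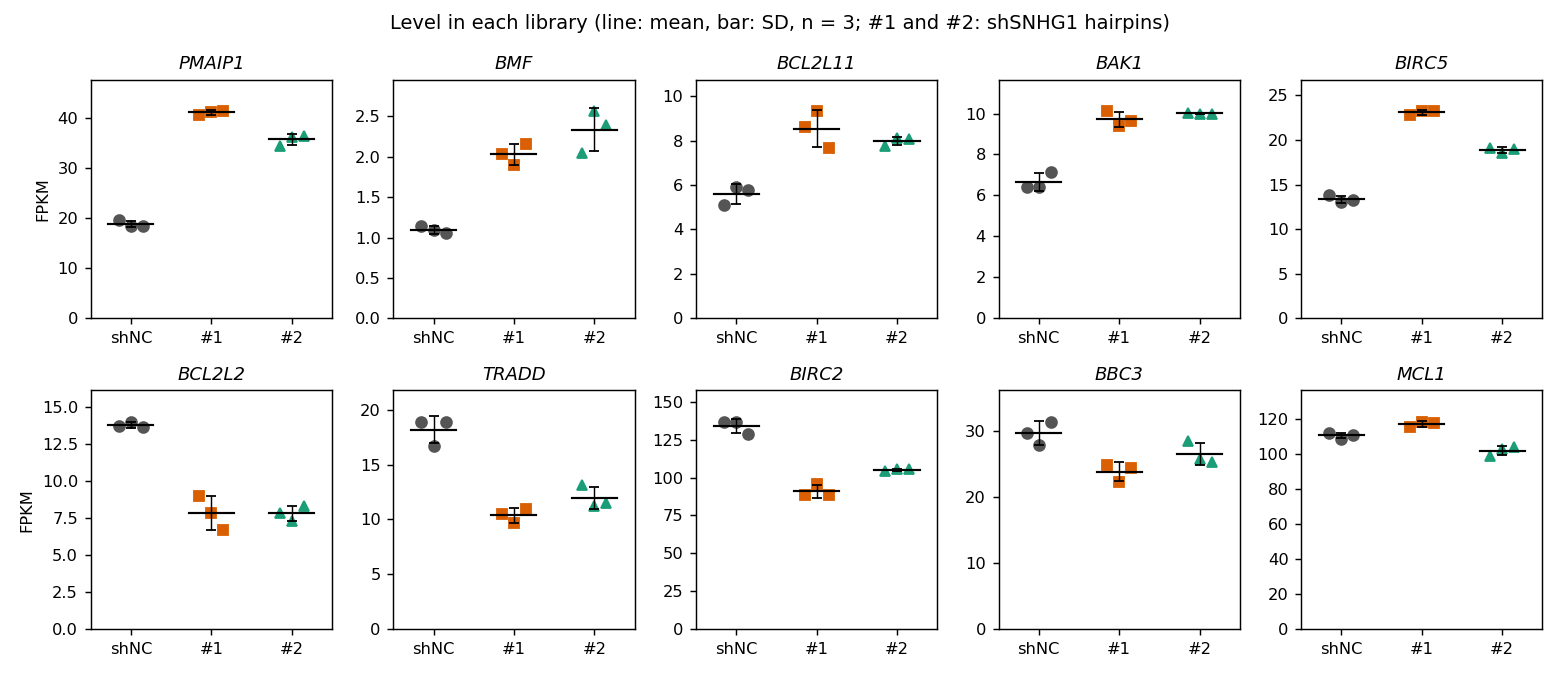
Level of 10 members in each library, in FPKM on axes that start at 0, with the group mean as a line and the SD as a bar (n = 3). PMAIP1, BMF, BCL2L11, BAK1 and BIRC5 lie above shNC with both hairpins, BCL2L2, TRADD and BIRC2 lie below it, BBC3 overlaps shNC with shSNHG1#2, and MCL1 lies on opposite sides of shNC.

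The pro-survival BCL2 proteins did not move as a group. BCL2L2 (BCL-W) fell most, from 13.7, 14.0 and 13.6 FPKM to 8.96, 7.81 and 6.65 with shSNHG1#1 and 7.83, 7.27 and 8.28 with shSNHG1#2. No hairpin library reached a control library, and the log2 fold changes were -0.86 (SE 0.090, adjusted p = 1.616e-05) and -0.88 (SE 0.090, adjusted p = 1.594e-05). The annotation also holds a readthrough gene, BCL2L2-PABPN1, that shares 813 exon bases with BCL2L2. Its mean estimated count was 438 in shNC, 536 with shSNHG1#1 and 508 with shSNHG1#2, while that of BCL2L2 was 1071, 608 and 608, and the part of read division between them in the BCL2L2 value was not tested. PPP1R3E, on the opposite strand over BCL2L2, had 578, 365 and 400.

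BCL2L1 (BCL-XL) had 130, 129 and 126 FPKM in shNC, 137, 130 and 133 with shSNHG1#1 and 140, 133 and 134 with shSNHG1#2. In FPKM, to which no TMM factors were applied, the hairpin libraries all lay above shNC by a narrow margin. Limma on log2(FPKM + 1) called BCL2L1 higher with shSNHG1#2 (0.083, adjusted p = 0.0424). On counts its log2 fold change was 0.01 with either hairpin (SE 0.032, adjusted p = 0.838 and 0.806). MCL1, a short-lived protein that PMAIP1 helps to degrade, had 112, 109 and 111 FPKM in shNC, 116, 119 and 118 with shSNHG1#1 and 98.9, 103 and 104 with shSNHG1#2. The 3 groups did not overlap, with shSNHG1#1 highest and shSNHG1#2 lowest. On counts MCL1 was at 0.03 (SE 0.025, adjusted p = 0.358) with shSNHG1#1 and fell by 0.19 (SE 0.026, adjusted p = 0.0001175) with shSNHG1#2. With shSNHG1#1, library totals gave 0.077 and limma on log2(FPKM + 1) 0.082, and both passed (adjusted p = 0.0341 and 0.0253).

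BCL2A1, an NF-kB target that binds several BH3-only proteins, had 15.9, 16.2 and 15.2 FPKM in shNC, 18.5, 17.5 and 19.4 with shSNHG1#1 and 19.4, 18.3 and 19.2 with shSNHG1#2. The control libraries lay below all others, and BCL2A1 rose by 0.18 (SE 0.061, adjusted p = 0.0317) and 0.17 (SE 0.061, adjusted p = 0.0400) on the log2 scale. These calls were lost in 6 and 8 of the 9 fits that left out a library, with the highest adjusted p = 0.124 without shSNHG1#1 replicate 3 and 0.128 without shSNHG1#2 replicate 1. BCL2 had 32.4 to 57.9 estimated counts per library and did not pass (log2 fold change 0.41 and 0.46, SE 0.20).

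The pore formers differed among themselves. BAK1 rose from 6.42, 6.39 and 7.15 FPKM to 10.1, 9.39 and 9.63 with shSNHG1#1 and 10.04, 10.00 and 10.00 with shSNHG1#2, with no overlap with shNC and log2 fold changes of 0.50 (SE 0.062) and 0.52 (SE 0.062). BAX had 103, 105 and 111 FPKM in shNC, 106, 101 and 104 with shSNHG1#1 and 98.5, 95 and 92.1 with shSNHG1#2. Only shSNHG1#2 lay apart from shNC, where BAX fell by 0.21 (SE 0.036, adjusted p = 0.0006009), against -0.08 (SE 0.036, adjusted p = 0.107) with shSNHG1#1. The ratio of BAX to BAK1 in FPKM was 15.5 to 16.4 in shNC, 10.5 to 10.8 with shSNHG1#1 and 9.21 to 9.81 with shSNHG1#2. BAX remained the more abundant of the pair in each library. BOK did not pass on counts (-0.12 and -0.04), which is taken up with its transcript length.

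Set against each other per library, PMAIP1 and MCL1 gave the tightest contrast. The ratio of PMAIP1 to MCL1 in FPKM was 0.167 to 0.175 in shNC, 0.348 to 0.353 with shSNHG1#1 and 0.349 to 0.352 with shSNHG1#2. Although PMAIP1 and MCL1 were each lower with shSNHG1#2 than with shSNHG1#1, their ratio overlapped between the hairpins. The ratio of BCL2L11 to MCL1 was 0.045 to 0.054 in shNC, 0.065 to 0.079 with shSNHG1#1 and 0.078 to 0.079 with shSNHG1#2. BBC3 to MCL1 ran from 0.26 to 0.28 in shNC, from 0.19 to 0.21 with shSNHG1#1 and from 0.24 to 0.29 with shSNHG1#2. These ratios of transcript levels are descriptions formed from values already tested, and they say nothing of the proteins.

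Downstream of the mitochondrial membrane, CYCS stood out. CYCS, which encodes cytochrome c, rose from 25.7, 23.5 and 24.5 FPKM to 33.9, 35.4 and 37.3 with shSNHG1#1 and 35.0, 35.8 and 33.1 with shSNHG1#2. All hairpin libraries exceeded all controls, and the log2 fold changes were 0.48 (SE 0.045) and 0.43 (SE 0.045). APAF1, the scaffold that cytochrome c activates, was at -0.05 and -0.10 and did not pass. The IAP antagonists DIABLO (0.23 and 0.14) and HTRA2 (0.13 and -0.07) did not pass on counts. In FPKM the HTRA2 libraries with shSNHG1#1 lay above shNC, at 8.45 to 8.85 against 7.65 to 7.96, and limma on log2(FPKM + 1) called it (adjusted p = 0.0203).

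Of the 5 caspases, CASP9 alone passed, and with shSNHG1#1 alone. CASP9, the initiator that APAF1 recruits, had 8.06, 8 and 8.22 FPKM in shNC against 7.29, 6.93 and 7.31 with shSNHG1#1, with no overlap, and fell by 0.27 (SE 0.053, adjusted p = 0.001591). With shSNHG1#2 it was at -0.13 (SE 0.052, adjusted p = 0.063), which passed when shSNHG1#1 replicate 1 was left out. CASP2, CASP6, CASP8 and CASP10 did not pass, with log2 fold changes of 0.11, 0.25, 0.04 and -0.13 for shSNHG1#1 and 0.08, 0.36, 0.03 and -0.03 for shSNHG1#2. With library totals CASP2 was called higher with shSNHG1#1 (adjusted p = 0.0405) and CASP6 with shSNHG1#2 (0.0446). CFLAR (FLIP), which blocks CASP8 at death receptors, was at -0.05 and 0.03 and did not pass, although library totals called it higher with shSNHG1#2 (adjusted p = 0.0242). The interval that these values leave is narrow for CASP8 and CFLAR (SE 0.040 and 0.027) and wide for CASP6 (SE 0.15), the lowest of the caspases in FPKM.

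The death receptor adaptors moved apart. FADD, which brings CASP8 to FAS and the TRAIL receptors, rose from 13.2, 14.3 and 14.1 FPKM to 18.1, 17.1 and 19.6 with shSNHG1#1 and 19.8, 18.4 and 17.5 with shSNHG1#2. TRADD, the first adaptor at TNF receptor 1, fell from 18.9, 16.7 and 18.9 FPKM to 10.5, 9.66 and 11 with shSNHG1#1 and 13.1, 11.2 and 11.5 with shSNHG1#2. For neither gene did a hairpin library overlap a control library. The log2 fold changes were 0.34 (SE 0.064) and 0.40 (SE 0.064) for FADD and -0.73 (SE 0.067) and -0.61 (SE 0.067) for TRADD. In FPKM TRADD therefore stood above FADD in the controls and below it in all 6 hairpin libraries. RIPK1, the kinase at TNF receptor 1, fell by 0.21 (SE 0.054, adjusted p = 0.006764) with shSNHG1#1 and was at -0.07 on counts (adjusted p = 0.289) with shSNHG1#2.

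The IAP family was split between BIRC5 and the others. BIRC5 (survivin), which acts in cell division as well as in survival, rose from 13.8, 13.0 and 13.2 FPKM to 22.8, 23.3 and 23.2 with shSNHG1#1 and 19.1, 18.5 and 19.0 with shSNHG1#2. The groups did not overlap, and the log2 fold changes were 0.73 (SE 0.041, adjusted p = 1.207e-07) and 0.44 (SE 0.041, adjusted p = 9.185e-06). BIRC2 fell from 137, 137 and 129 FPKM to 88.7, 95.8 and 88.4 with shSNHG1#1 and 105, 105 and 106 with shSNHG1#2, again with no overlap among the 3 groups. Its log2 fold changes were -0.61 (SE 0.038, adjusted p = 3.141e-07) and -0.41 (SE 0.038, adjusted p = 7.291e-06).

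XIAP, the IAP that inhibits caspases most directly, had 10.6, 10.2 and 11 FPKM in shNC, 9.64, 9.66 and 9.34 with shSNHG1#1 and 8.99, 9.91 and 10.05 with shSNHG1#2. The hairpin libraries all lay below the controls by a narrow margin, and XIAP fell by 0.18 (SE 0.037) and 0.19 (SE 0.037). On log2(FPKM + 1) limma called neither fall (adjusted p = 0.0549 and 0.0797). BIRC6, a very large IAP with ubiquitin ligase activity, fell with shSNHG1#1 by 0.15 (SE 0.039, adjusted p = 0.009433) and was at -0.03 with shSNHG1#2. That BIRC6 call was also lost on FPKM (adjusted p = 0.133 at a pseudocount of 1) and with library totals (0.0714).

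The hairpins were then compared with each other. Of the 33 members 4 differed between shSNHG1#2 and shSNHG1#1 (1 higher, 3 lower), or 12.1%, where 3.12% of all features did and 1.12% were lower. In FPKM 10 members did not overlap between the hairpins, against 19.2% of all features. MCL1 was lower with shSNHG1#2 by a log2 fold change of -0.22 (SE 0.025, adjusted p = 0.0009379), as were BIRC5 (-0.30, SE 0.040, adjusted p = 0.002248) and PMAIP1 (-0.21, SE 0.034, adjusted p = 0.007428). BIRC2 was higher with shSNHG1#2 (0.20, SE 0.038, adjusted p = 0.0201). For PMAIP1, BIRC5 and BIRC2 the shSNHG1#2 level lay between that of shNC and that of shSNHG1#1, whereas MCL1 lay outside. The BIRC2 difference lost its call in 5 of 9 fits that left out a library, those without shSNHG1#1 replicate 1 or 3 or any 1 of the shSNHG1#2 libraries (highest adjusted p = 0.0876, without shSNHG1#1 replicate 3). BAX did not pass here (-0.14, SE 0.036, adjusted p = 0.0788), and DESeq2 called it (adjusted p = 0.030). Over all features 64% of the calls between the hairpins were higher with shSNHG1#2, and 74.8% with library totals, under which 4 members were called as well.

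A gene's estimated count and FPKM together imply the mean length of the transcripts to which its reads were assigned, and this length shifted for some members. BOK, a pore former that acts without BAX and BAK1, had implied lengths of 2953, 3263 and 3131 bases in shNC, 3952, 4175 and 3613 with shSNHG1#1 and 3824, 3820 and 3767 with shSNHG1#2. No hairpin library overlapped shNC, so BOK was lower in FPKM (10.1, 8.69 and 10.5 against 7.50, 6.53 and 8.17, and 8.21, 8.23 and 7.96) while its count did not pass. RIPK1 was longer with the hairpins, at 3489 to 3671 bases in shNC, 3848 to 4230 with shSNHG1#1 and 3879 to 4101 with shSNHG1#2. CASP8 was shorter, at 2631 to 2864 bases in shNC, 2499 to 2611 with shSNHG1#1 and 2482 to 2489 with shSNHG1#2. Such shifts were not particular to BOK, RIPK1 and CASP8. BID was at 2699 to 2773 bases in shNC, 2796 to 2831 with shSNHG1#1 and 2811 to 2861 with shSNHG1#2. The lengths of APAF1, CASP6 and BBC3 did not overlap shNC with either hairpin. The share of all features with such a shift was not counted.

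For BOK, RIPK1 and CASP8 the call depended on the unit. On log2(FPKM + 1) limma called BOK lower with shSNHG1#1 (adjusted p = 0.00876) and CASP8 higher with both hairpins (adjusted p = 0.00909 and 0.00272). It did not call BOK with shSNHG1#2, and it called RIPK1 lower with shSNHG1#2 (-0.15, adjusted p = 0.0121), where the count did not pass. PMAIP1 shortened slightly, from 2120 to 2139 bases in shNC to 2026 to 2037 with shSNHG1#1 and 2028 to 2057 with shSNHG1#2, which is small beside its change in level. MCL1 stayed between 3541 and 3588 bases and BCL2L1 between 2525 and 2571 bases in all 9 libraries. The table gives 1 row per gene, so which transcripts of BOK, RIPK1 or CASP8 were involved was not analysed here.

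**Figure D4:**
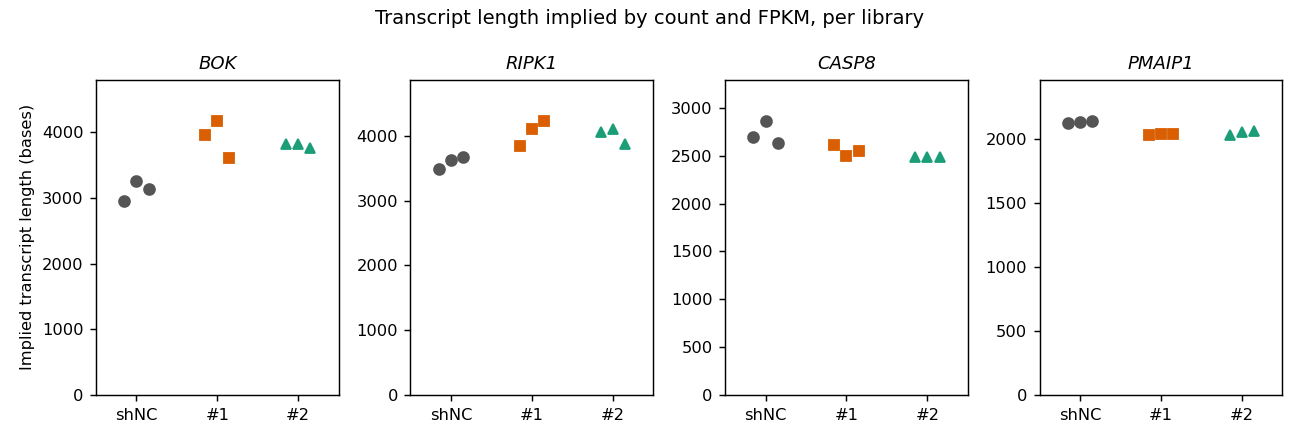
Transcript length implied by the estimated count and the FPKM in each library, in bases, for BOK, RIPK1, CASP8 and PMAIP1 (circles shNC, squares shSNHG1#1, triangles shSNHG1#2). BOK lies at 2953 to 3263 bases in shNC and at 3613 to 4175 in the hairpin libraries, and CASP8 lies lower with the hairpins than in shNC.

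The promoter sequences of members that moved with both hairpins are shown because genes of one pathway went in opposite directions. RefSeq's table on GRCh38.p14 held a promoter for 27 of the 33 members, and the 250 bases before the start are given for the 3 of these with the largest increases and the 2 with the largest decreases. BMF (Entrez gene 90427) is at chr15:40108880-40109129, minus strand, PMAIP1 (5366) at chr18:59899746-59899995, plus strand, BAK1 (578) at chr6:33580277-33580526, minus strand, BIRC2 (329) at chr11:102346964-102347213, plus strand, and BBC3 (27113) at chr19:47232668-47232917, minus strand. Each sequence reads 5′ to 3′ on the gene's strand. Capitals mark matches, on either strand, to CCAAT, to TGACG (the core of the cAMP response element) or to CACGTG (an E-box). They also mark the p53 half-site consensus of 10 bases, which is part of a full p53 site.
BMF: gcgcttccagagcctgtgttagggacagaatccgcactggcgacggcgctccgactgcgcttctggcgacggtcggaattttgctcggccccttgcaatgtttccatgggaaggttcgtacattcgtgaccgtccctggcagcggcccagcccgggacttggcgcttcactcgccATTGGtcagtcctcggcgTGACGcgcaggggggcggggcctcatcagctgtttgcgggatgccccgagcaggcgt
PMAIP1: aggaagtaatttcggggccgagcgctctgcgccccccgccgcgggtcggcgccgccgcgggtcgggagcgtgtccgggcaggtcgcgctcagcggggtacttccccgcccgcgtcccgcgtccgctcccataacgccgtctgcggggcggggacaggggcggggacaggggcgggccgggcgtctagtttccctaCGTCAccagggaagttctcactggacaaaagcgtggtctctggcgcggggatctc
BAK1: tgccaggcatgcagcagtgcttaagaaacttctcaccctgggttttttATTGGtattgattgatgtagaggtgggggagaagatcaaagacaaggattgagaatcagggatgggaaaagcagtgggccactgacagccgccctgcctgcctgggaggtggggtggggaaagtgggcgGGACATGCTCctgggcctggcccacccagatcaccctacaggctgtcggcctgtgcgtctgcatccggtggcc
BIRC2: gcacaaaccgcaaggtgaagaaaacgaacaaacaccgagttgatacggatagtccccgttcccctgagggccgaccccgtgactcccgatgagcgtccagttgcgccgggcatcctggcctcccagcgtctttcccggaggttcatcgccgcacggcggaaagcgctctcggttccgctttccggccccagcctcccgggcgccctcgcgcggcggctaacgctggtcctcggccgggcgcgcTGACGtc
BBC3: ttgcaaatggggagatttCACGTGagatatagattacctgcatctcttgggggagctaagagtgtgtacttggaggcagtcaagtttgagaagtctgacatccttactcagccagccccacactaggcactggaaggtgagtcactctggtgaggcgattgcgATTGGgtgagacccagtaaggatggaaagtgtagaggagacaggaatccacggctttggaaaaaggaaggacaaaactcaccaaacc

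TGACG stood in the promoters of BMF, PMAIP1 and BIRC2, thus in genes that rose and in one that fell. It was found in 11 of the 27 members with a promoter and in 21.7% of all 27305 promoters of the same length. CCAAT stood in BMF, BAK1 and BBC3, in 11 of 27 members and in 33% of all promoters. The p53 half-site consensus was matched in BAK1 alone of the 27, at bases -73 to -64 before the start, as GGACATGCTC, and in 5.5% of all promoters. CACGTG, whose letters include the hypoxia core ACGTG on both strands, stood in BBC3 and BAX and in 6.5% of all promoters. ACGTG was found in 6 members (BAX, BBC3, APAF1, CYCS, CFLAR and XIAP) and in 18.7% of all promoters. Among the other motifs searched, the GC box GGGCGG was in 20 of 27 members and 42.3% of all promoters, TATAAA in 3 and 11.1%, and TTTGAA (the cell cycle homology region) in 1 and 13.6%. The E2F forms TTTCCCGC, TTTGGCGC, TTTCGCGC and TTTGCCGC were in 0 of 27 and 2.8%. A match describes letters in this window, not a bound site, and the absence of one says nothing of the factor.

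The rest of the cell death pathways was read from 60 further genes in 6 lists, 54 of which could be tested. With shSNHG1#1 35 changed (11 higher, 24 lower), or 64.8%, and with shSNHG1#2 33 (12 higher, 21 lower), or 61.1%. Over all features 48.1% and 46.2% were called. With shSNHG1#1 24.5% of all features were higher and 23.5% lower, and with shSNHG1#2 23.3% and 22.8%. The same shares stand beside the counts of each list below. The lists hold 7 to 13 tested genes, and none was tested as a set. Among 13 tested death receptors and ligands, 4 rose and 4 fell with either hairpin. TNFSF10 (TRAIL), a ligand that triggers apoptosis through its receptors, fell from 46.6 ± 1.59 FPKM to 18.0 ± 0.82 and 23.8 ± 1.11 (SD, n = 3), at log2 fold changes of -1.43 (SE 0.044) and -1.04 (SE 0.042). Its decoy receptor TNFRSF10D (-0.56 and -0.59) and its death receptor TNFRSF10B (-0.24 and -0.22) fell as well. TNFRSF1A, the TNF receptor that TRADD binds, rose from 136 ± 4.44 FPKM to 171 ± 3.84 and 168 ± 2.57 (0.28 and 0.24), and TNFRSF21 rose by 0.18 and 0.27. TNFRSF1A and TRADD thus moved in opposite directions.

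AIFM1, a mitochondrial oxidoreductase that can enter the nucleus during cell death, rose by 0.64 and 0.52, and the caspase substrates PARP1 (0.41 and 0.31) and DFFA (0.26 and 0.21) rose too. Leaving out shSNHG1#2 replicate 2 ended the DFFA call with shSNHG1#2 (adjusted p = 0.0523). Of 10 other BCL2-like and BNIP genes tested, 1 rose and 5 fell with either hairpin, where 23.5% and 22.8% of all features were lower. BNIP3 and BNIP3L, mitophagy receptors with a BH3-like motif and known hypoxia targets, fell from 115 ± 5.00 to 30.7 ± 0.15 and 31.2 ± 1.53 FPKM and from 119 ± 4.08 to 34.9 ± 1.10 and 42.9 ± 1.72 FPKM. Their log2 fold changes, -1.96 and -1.95 for BNIP3 and -1.81 and -1.54 for BNIP3L, were larger in size than that of any of the 33 members. BCL2L13 fell (-0.61 and -0.54) and BCL2L12 rose (0.68 and 0.68).

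Among 10 other IAPs and regulators of the members, 1 rose and 5 fell with shSNHG1#1 and 2 rose and 3 fell with shSNHG1#2. Over all features 23.5% and 22.8% were lower. BIRC3 (cIAP2), the close relative of BIRC2, fell from 98.1 ± 3.61 FPKM to 75.3 ± 4.66 with shSNHG1#1 (-0.46, SE 0.048) and was at 92.4 ± 3.76 with shSNHG1#2 (-0.18, SE 0.048), a call lost with library totals (adjusted p = 0.0746) and limma on log2(FPKM + 1) (0.214). XAF1, which binds XIAP, was at 55.2 ± 0.70, 38.9 ± 1.84 and 56.0 ± 1.27 FPKM, so it fell with shSNHG1#1 (-0.56) and not with shSNHG1#2 (-0.05, adjusted p = 0.266). USP9X, which removes ubiquitin from MCL1, fell by 0.13 and 0.19, and the first call was lost with library totals (adjusted p = 0.0631) and limma on log2(FPKM + 1) (0.0696). FBXW7, a ubiquitin ligase subunit for MCL1, fell by 0.24 and 0.23 on counts. Limma on log2(FPKM + 1) called neither (adjusted p = 0.206 and 0.131), and the calls were lost in 1 and 3 of 9 fits that left out a library (highest 0.0505 without shSNHG1#1 replicate 3 and 0.0714 without shSNHG1#2 replicate 2). HUWE1, another MCL1 ligase, was at 0.06 with shSNHG1#1, which passed with library totals (adjusted p = 0.00543), and rose by 0.12 with shSNHG1#2.

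Of 7 tested genes of inflammatory caspases and necroptosis none rose, while 5 fell with shSNHG1#1 and 4 with shSNHG1#2. Over all features 24.5% and 23.3% were higher and 23.5% and 22.8% lower. MLKL, the pore former of necroptosis, fell by 0.53 and 0.44, CASP1 by 0.49 and 0.25, ZBP1 by 1.69 and 1.16 and PYCARD by 0.46 and 0.65, while CASP4 fell by 0.31 with shSNHG1#1 and was at -0.13 with shSNHG1#2. The CASP1 call with shSNHG1#2 was lost with library totals (adjusted p = 0.0919), DESeq2 (0.0753) and limma on log2(FPKM + 1) (0.156), and in 3 of 9 fits that left out a library (highest 0.0657, without shSNHG1#2 replicate 1). RIPK3, the kinase that activates MLKL, was too low to be tested. Of 7 outer membrane and fission genes, 1 rose and 4 fell with either hairpin, beside the same shares of all features. VDAC2, a channel that holds BAK1 at the outer membrane, fell by 0.39 and 0.42, VDAC1 by 0.14 and 0.23 and MFF by 0.15 and 0.21, and OPA1, which keeps cristae closed, rose by 0.42 and 0.29. Between the hairpins, TNFSF10 (0.39), BNIP3L (0.27), BIRC3 (0.28) and XAF1 (0.51) were higher with shSNHG1#2, and none of the 54 was lower. The genes called made up 7.41% of the 54, where 2% of all features were higher and 1.12% lower. That none was lower thus lies near the background. Leaving out shSNHG1#2 replicate 2 ended the BIRC3 call (adjusted p = 0.0591).

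**Figure D5:**
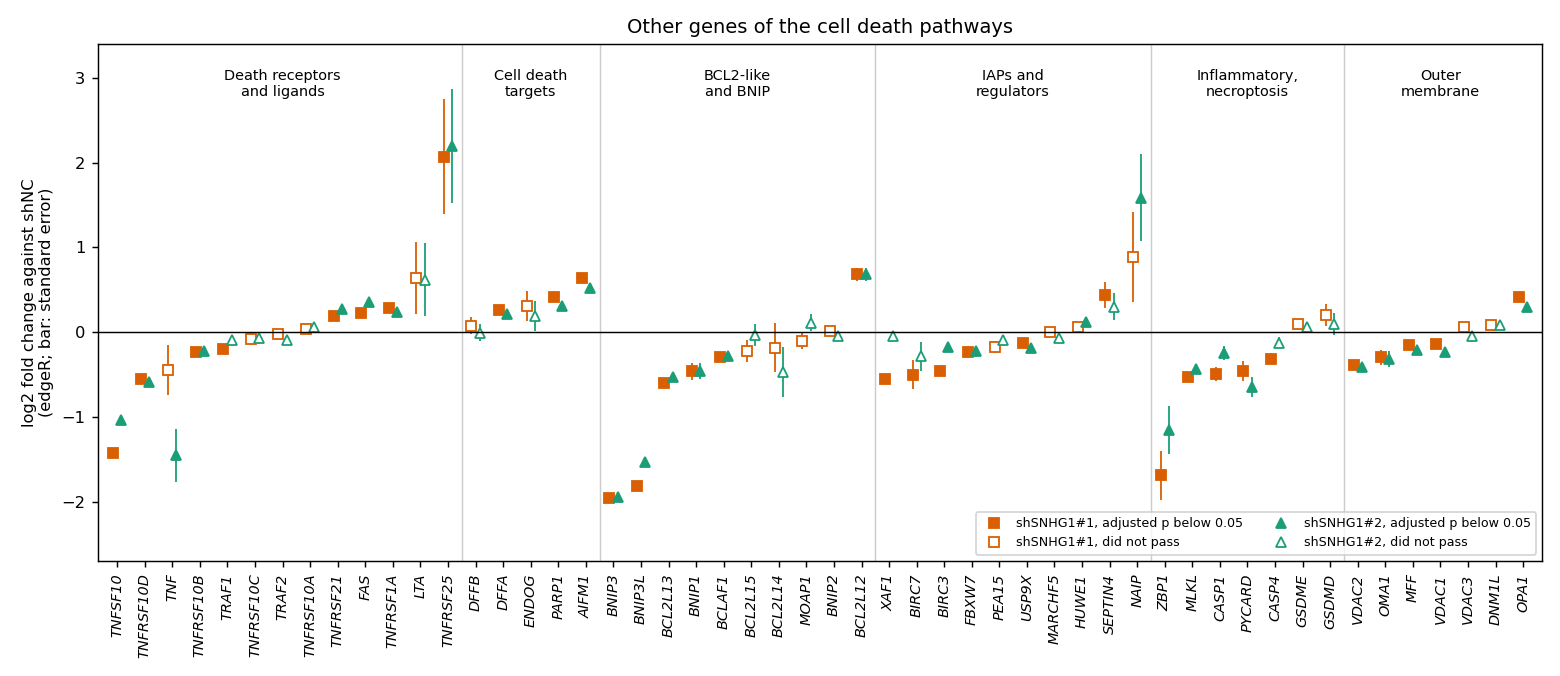
Log2 fold change against shNC from edgeR, with its standard error as a bar, of tested genes of the cell death pathways outside the 33 members, in 6 lists (squares shSNHG1#1, triangles shSNHG1#2, filled where the adjusted p was below 0.05). BNIP3, BNIP3L and TNFSF10 lie far below 0 with both hairpins, and TNFRSF25, TNF, ZBP1 and NAIP have wide bars.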

How the data were processed

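RNA sequencing of 9 libraries, 3 per group, was analysed from the table that the authors deposited. Per the file headers it holds, for each gene and library, an estimated count and an expression value, deposited by the authors. That value is FPKM as judged from the values, since counts, totals and the values the authors deposited give plausible transcript lengths. Per the submitters' processing notes RSEM 1.2.12, Bowtie2 2.2.5, HISAT2 2.0.4 and DESeq2 1.4.5 were used, in roles that are not stated. For the annotation, the genome build and the use of strand, the sources used here give nothing. Table columns were tied to groups by their hairpin number or control name. Members were matched by gene symbol.

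Estimated counts were rounded and tested with edgeR 4.0.16 (R 4.3.3), using TMM factors, filterByExpr, a quasi-likelihood F test on the 9 libraries with no term but group, and Benjamini-Hochberg adjustment over 18767 features at 0.05. Standard errors come from the F statistic, and the median biological coefficient of variation was 9.65%. Levels are FPKM means with SD. No TMM factors were applied to FPKM, in the levels or in limma. These factors were 0.971 to 0.979 in shNC, 0.999 to 1.015 with shSNHG1#1 and 1.009 to 1.027 with shSNHG1#2. Values per library are given for members past the threshold with both hairpins in 1 direction, for those past it with an absolute log2 fold change of at least 0.58, and for MCL1, BCL2L1, BAX, BAK1, PMAIP1 and BIRC5. Of each list of other pathway genes, up to 4 with the smallest p per contrast against shNC are named. Some genes of these lists entered the counts but are not reported here by name. BOK, CASP9 and the length examples were picked after their values were seen. The members and lists were chosen with earlier results of these data known.

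Alternatives were other scaling factors, DESeq2 1.42.0, limma 3.58.1 on log2(FPKM + 1) and log2(FPKM + 0.1), no filter, only the 2 groups compared, each library left out, and a replicate block. A fit without features that lack a gene symbol was added after the data were seen. On counts simulated for 18767 features, a change of 1.5-fold was recovered for 84% of changed genes for shSNHG1#1 against shNC, 80% for shSNHG1#2 against shNC and 88% between the hairpins. At 1.3-fold the shares were 64%, 42% and 58%. Changed genes numbered 50 at each fold, far fewer than the 48.1% and 46.2% of features called against shNC. They were drawn from features above a minimum mean level, which leaves out BCL2, HRK and BIK. The shares therefore describe the simulated setting, not the recovery in the contrasts with shNC or for members at low counts. An exact permutation test of 3 against 3 libraries cannot go below p = 0.1, so none was used.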

Additional observations from a re-analysis of the deposited data

Results flagged for a closer look

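MCL1 was singled out because the hairpins differed from each other by the test of that difference and lay on opposite sides of the control. Its level was 116 to 119 FPKM with shSNHG1#1, above the 109 to 112 FPKM of shNC, and 98.9 to 104 FPKM with shSNHG1#2, below shNC. The log2 fold change of shSNHG1#2 against shSNHG1#1 was -0.22 (edgeR, adjusted p = 0.0009379), with every shSNHG1#2 library below every shSNHG1#1 library. On counts the difference of shSNHG1#1 from shNC (0.03) did not pass.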

How the results depend on the processing

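No value of a member or of a named pathway gene changed sign past a threshold under any alternative that was run. Counts of changed members stayed within 15 to 19 for shSNHG1#1 and 14 to 16 for shSNHG1#2 when each library was left out in turn, and within 3 to 4 between the hairpins. The count of members higher with shSNHG1#2 than with shSNHG1#1 was 1 and ran from 0 to 1 over those fits, through BIRC2. The count of pro-death members that differed between the hairpins was 1 and became 2 with the DESeq2 Wald test (through BAX), with limma on log2(FPKM + 1) and with limma on log2(FPKM + 0.1) (both through HTRA2). Pro-survival members called higher numbered 2 with each hairpin and 1 with DESeq2 or without the filter, through BCL2A1, as they did for shSNHG1#1 when only the 2 groups were fitted. They numbered 3 with library totals (with MCL1 for shSNHG1#1 and CFLAR for shSNHG1#2) and with limma on FPKM (with MCL1 and BCL2L1). Pro-survival members called lower with shSNHG1#1 numbered 4, and 2 with limma on FPKM, through XIAP and BIRC6. The cause of these shifts was not tested. No member's call changed with DESeq2 size factors or without features that lack a gene symbol. Samples with the same replicate number did not deviate together (correlation of deviations -0.036 to 0.032, against -0.052 to 0.048 for other numbers). With the replicate block 18, 14 and 4 members were called in place of 18, 16 and 4, with BCL2A1 and HRK losing their calls for shSNHG1#2 (adjusted p = 0.0522 and 0.0621), BAD losing its call for shSNHG1#1 (0.0519) and DIABLO gaining one there (0.0431). Members near 1 FPKM or below, such as HRK and BCL2, are limited by their low counts.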
